A study of Mus musculus with 8 samples.

Results

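The antioxidant, glutathione and thioredoxin genes are 48 named genes that make, recycle or use glutathione and thioredoxin, remove superoxide and peroxides, break down heme and quinones, or regulate those genes. They were found by symbol in the array's annotation, and 45 of them had a probe set (a group of short probes that reads the 3' part of a transcript) paired with exactly 1 symbol, of 18194 genes with such a probe set in all. Of the 45, 44 were bright enough to be tested, and the brightest such probe set stood for each. Ggt7, a member of the gamma-glutamyltransferase family, fell below the filter, with signals of 25.6 to 56.4 in hypoxia and 14.6 to 42.6 in control. Prdx1 lay only on probe sets shared with a second gene, and Prdx1, Prdx5 and Prdx6 were not analysed here.

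RNA came from the quadriceps, a large locomotor muscle of the thigh, of adult male C57Bl/10 mice, and was hybridised to 8 Affymetrix mouse arrays, 4 per group. The Hypoxia group was kept in a closed chamber for 2 weeks while oxygen was lowered to 8% during the first week, from 21%, and then held at 8% for 7 more days. The Control group was kept under room conditions for the same 2 weeks. The mice carried no transgene or deletion that the labels name, and being in the chamber cannot be told apart from breathing less oxygen. The labels do not state whether each sample is a different animal, so the p-values measure the spread between these samples, which may be technical. Changes are log2 differences, hypoxia minus control, of the signal plus 16, given with the standard error (SE) of the limma fit, and a gene is said to rise or fall where its adjusted p over all 13257 genes tested was under 0.05.

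In these pathways the transcription factor NRF2, encoded by Nfe2l2, is held at low levels by KEAP1, which passes it to a CUL3 ubiquitin ligase, and on oxidative stress NRF2 accumulates and binds antioxidant response elements near its target genes. Glutathione is made by glutamate-cysteine ligase and glutathione synthetase, is spent by peroxidases, glutaredoxins and S-transferases, and is regenerated by glutathione reductase with NADPH. Thioredoxins reduce protein disulfides and peroxiredoxins, and are themselves reduced by the thioredoxin reductases. Muscle fibres produce superoxide during contraction, and these systems limit the damage.

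After hypoxia the genes of this group moved in both directions, and the heme oxygenases, quinone reductases, superoxide dismutases and glutathione S-transferases each held genes that rose and genes that fell. Among the superoxide dismutases the rise was that of Sod1, whose other probe sets past the filter did not pass. Of the 44 tested, 11 rose and 10 fell, against 14.8% of all genes tested that rose and 18.8% that fell (33.6% called in all). Among the members these shares were 25.0% and 22.7%. The genes that rose were Hmox1, Txn1, Gsto1, Gsr, Gstm2, Gclc, Gclm, Glrx, Sod1, Gpx3 and Nqo1. Those that fell were Gsta4, Sod3, Gstt1, Gstp1, Gstk1, Nqo2, Mgst3, Prdx2, Hmox2 and Gstz1. The median change of the members was -0.11 on the log2 scale, against -0.04 over all genes, and the median size of change without its sign was 0.54, against 0.42. At least 2-fold changes were seen for 13 of the called members, where 14.8% of all genes were called with a change of that size. The 4 hypoxia signals did not overlap the 4 control signals in 18 members, or 40.9%, against 33.4% of all genes. Of the 9 systems none had all its genes called in 1 direction: both heme oxygenases and both quinone reductases passed the test in opposite directions, 3 of 5 tested glutathione synthesis and recycling genes rose and none fell, and 6 of 12 glutathione S-transferases fell while 2 rose.

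**Figure D1:**
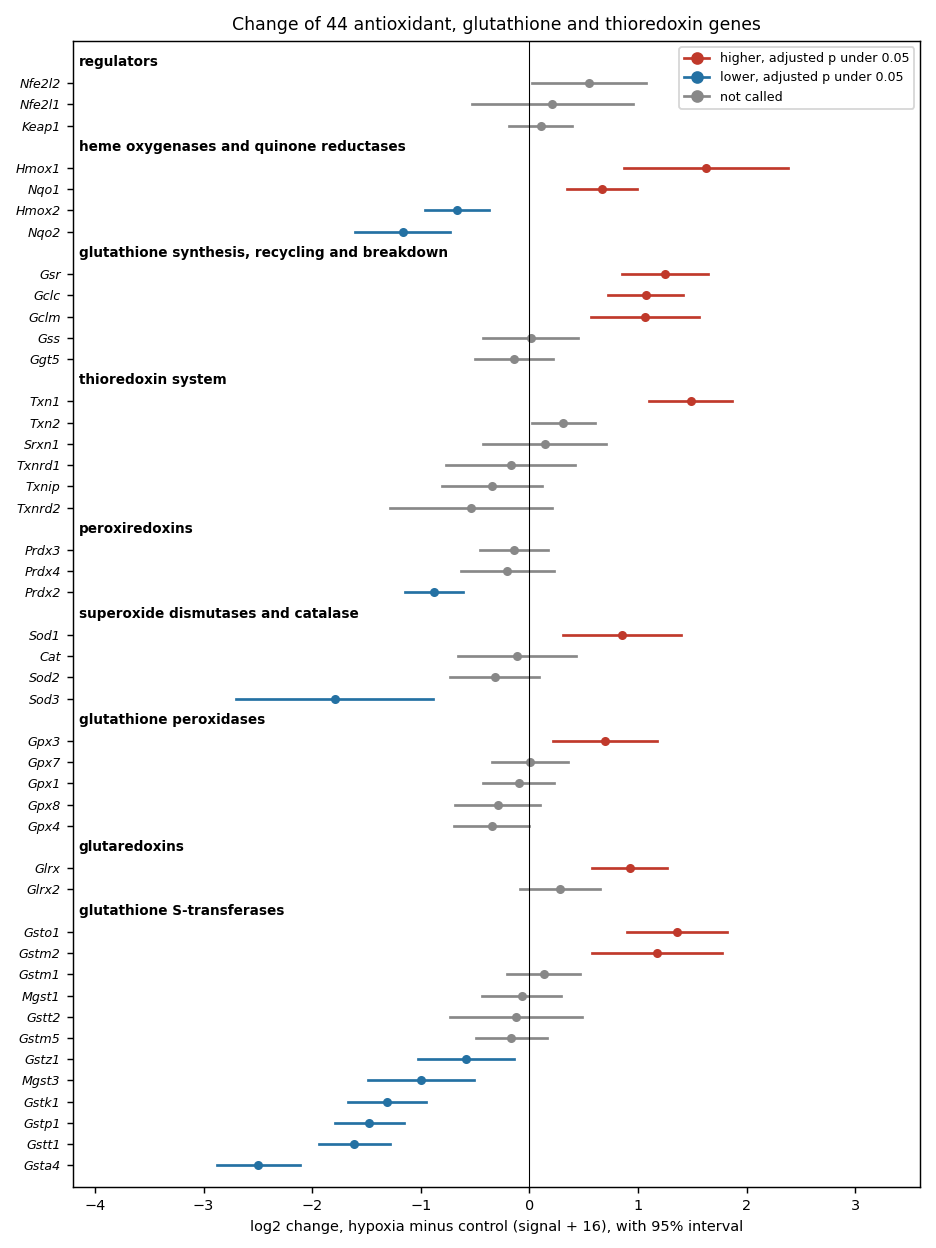
Log2 change of each of the 44 tested genes (x axis, hypoxia minus control on the signal plus 16) with its 95% interval, grouped by system. Red marks the 11 genes that rose and blue the 10 that fell, with Hmox1 at 1.62 and Gsta4 at -2.50 as the extremes, and gray genes did not pass the test.

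The arrays of a group were closely alike, with correlations across genes of 0.936 to 0.960 within hypoxia and 0.951 to 0.961 within control, and of 0.857 to 0.891 between the groups. RNA quality measures differed between the arrays: for Gapdh the 3' probe set read 3.44 times the 5' one in hypoxia 1, 0.801 to 0.874 times in hypoxia 2 to 4 and 0.776 to 0.807 times in control, and for beta-actin 1.40 to 2.53 times in hypoxia and 1.09 to 1.25 times in control. Without hypoxia 1, 12 members rose and 9 fell, and 20 of the 21 calls were kept. In 16 of the 44 members hypoxia 1 was the lowest of the 4 hypoxia arrays and in 11 it was the highest. Skeletal muscle fibre markers were bright on every array, with summed signals of 278367 to 386767 in hypoxia and 449639 to 524241 in control, and 8 of 10 fell by 0.44 to 1.83 on the log2 scale. The lowest group mean of a tested marker was 49.6 in the neutrophil and 51.7 in the fibroblast list, below the filter signal of 90.2. In the adipocyte, macrophage, endothelial and erythroid lists it was 95.1 to 254. All 8 fibroblast markers fell (summed signals 14809 to 19813 in hypoxia, 55377 to 63455 in control), as did all 5 tested adipocyte markers of 8 listed (17635 to 26985 in hypoxia, 29600.1 to 62660 in control). Of 5 tested neutrophil markers of 8 listed, 3 rose (3197 to 5954 in hypoxia, 445 to 1001 in control). Of 10 macrophage markers, Cd68 rose and Csf1r and Adgre1 fell (10019 to 18704 in hypoxia, 11938 to 17089 in control). Of 8 endothelial markers 2 fell (4987 to 9321 in hypoxia, 6182 to 10437 in control). Of 3 tested erythroid markers of 10 listed, Bpgm, which muscle also expresses, fell by 2.68, while Alas2 at 0.17 and Slc4a1 at 0.29 did not pass (1358 to 1897 in hypoxia, 3853 to 4808 in control). The part of these cell types and of RNA quality in the results on the members was not tested. In whole muscle, fewer cells of a type and less RNA per cell cannot be told apart.

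The regulators themselves did not pass the test on their brightest probe sets. Nfe2l2 had signals of 5282, 3398, 4149.8 and 3976 in the 4 hypoxia arrays, against 4965, 2351, 2658 and 2066 in the 4 control arrays. Control 1 stood among the hypoxia arrays and the groups overlapped, with a change of 0.55 ± 0.24 (SE, 95% interval 0.02 to 1.08, adjusted p = 0.103, n = 4 per group). Without control 1 the change was 0.82 and passed (adjusted p = 0.00519). A dimmer probe set of Nfe2l2, with 247 to 608 in hypoxia and 13.7 to 134 in control, rose by 2.71, so whether Nfe2l2 changed is uncertain. Keap1, the adaptor that marks NRF2 for degradation, had signals of 1349, 1369.5, 1501 and 1345 in hypoxia, against 1330, 1181.5, 1430.2 and 1240.5 in control. The groups overlapped and its change of 0.10 ± 0.13 had a 95% interval of -0.19 to 0.40. A dimmer Keap1 probe set fell by 2.46, with 14.5 to 232 in hypoxia and 230.1 to 380.4 in control, so its direction is uncertain as well. Nfe2l1, a related factor known for its control of proteasome genes, changed by 0.21 ± 0.34 and did not pass, with 0.52 without hypoxia 1 and a range of -0.08 to 0.52 over the alternatives.

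Heme oxygenases open the heme ring and release iron, carbon monoxide and biliverdin, and the inducible and the constitutive form moved in opposite directions. Hmox1, the inducible form and a classic NRF2 target, had signals of 327, 422, 584.5 and 602 in hypoxia, against 213, 54.4, 179 and 181 in control. Every hypoxia array was above every control array, control 2 being far below the other control arrays, and Hmox1 rose by 1.62 ± 0.35 (adjusted p = 0.00299, n = 4 per group). Hmox2, the constitutive form, had signals of 1456, 1265, 1581 and 1382 in hypoxia, against 2092, 2314.5, 2169.8 and 2493 in control. It fell by 0.67 ± 0.14 with no overlap (adjusted p = 0.00221). The quinone reductases divided in the same way. Nqo1, which reduces quinones with NADPH and is another NRF2 target, had signals of 1354, 1217, 1434 and 1171 in hypoxia, against 883, 874, 674 and 802 in control. All 4 hypoxia arrays lay above all 4 control arrays, and the rise of 0.67 ± 0.15 passed (adjusted p = 0.00385). Nqo2, a related flavoprotein that prefers a different cofactor, had signals of 177, 215, 319.6 and 259 in hypoxia, against 520.2, 628, 599.7 and 474 in control. It fell by 1.17 ± 0.20 with no overlap (adjusted p = 0.000675), and its 2 other probe sets also fell, with changes of -2.30 and -1.95. Without hypoxia 1, 2 or 3 the first of these sets was the brightest of Nqo2, and the change was -2.06, -1.83 or -2.47.

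Genes for the first step of glutathione synthesis and for the recycling of glutathione rose about 2-fold. Gclc, the catalytic subunit of glutamate-cysteine ligase, had signals of 1398, 1156, 1148 and 1686 in hypoxia, against 661, 586, 645 and 610.5 in control. The lowest hypoxia array was well above the highest control array, and Gclc rose by 1.07 ± 0.16 (adjusted p = 0.000235, n = 4 per group). The other probe set of Gclc gave -0.19, which did not pass, and the mean of both gave 0.44 (adjusted p = 0.0501), so the rise of Gclc is uncertain. Gclm, the modifier subunit that raises the activity of the catalytic one, had signals of 1333, 1475.5, 870.1 and 1071 in hypoxia, against 413, 479, 848 and 533 in control. Control 3 came close to hypoxia 3 without overlapping it. Gclm rose by 1.07 ± 0.23 (adjusted p = 0.00319), and its second probe set rose by 1.09. Gsr, the reductase that restores oxidised glutathione, had signals of 1406, 1703, 1188 and 940.3 in hypoxia, against 574, 498, 495.5 and 555 in control. All hypoxia arrays were above all control arrays, and the rise was 1.25 ± 0.18 (adjusted p = 0.000215). The second probe set of Gsr gave 0.53, which did not pass, so the size of this rise is uncertain. Gss, glutathione synthetase, changed by 0.01 (95% interval -0.42 to 0.45), and Ggt5, a gamma-glutamyltransferase that cleaves extracellular glutathione conjugates, by -0.14 (95% interval -0.50 to 0.22). Neither of them passed. A dimmer Gss probe set gave 0.53 with no overlap (230 to 379 in hypoxia, 181 to 223 in control) but did not pass, so whether Gss changed is uncertain.

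In the thioredoxin system the cytosolic thioredoxin rose, and no reductase passed. Txn1 had signals of 22764, 20154.5, 15038 and 13651 in hypoxia, against 5479.9, 6021, 7383 and 6241 in control. The groups were far apart, with hypoxia 1 and 2 the highest, and Txn1 rose 2.8-fold, by 1.49 ± 0.18 (adjusted p = 4.05e-05, n = 4 per group). A dim second probe set of Txn1 gave 0.18, which did not pass, and the mean of both rose by 0.83. Txn2, the mitochondrial thioredoxin, had signals of 2424, 3145, 2853 and 2948 in hypoxia, against 2376.5, 2157, 2225 and 2360.4 in control. These values did not overlap, yet the change of 0.31 ± 0.13 did not pass (adjusted p = 0.0943), and 2 further probe sets of Txn2 gave -0.02 and -0.35. Txnrd1, the cytosolic thioredoxin reductase, had signals of 892, 1869, 2227 and 1915 in hypoxia, against 2374, 2269, 1685 and 1273 in control. Hypoxia 1 was the lowest of all and the other arrays were mixed, and the change of -0.17 ± 0.28 did not pass (95% interval -0.77 to 0.42). Without hypoxia 1 its direction turned, to 0.11 (adjusted p = 0.721). Txnrd2, the mitochondrial reductase, changed by -0.54 ± 0.35 and did not pass, with -0.21 without hypoxia 1. Txnip, which binds and inhibits thioredoxin and responds to glucose, had signals of 8853.5, 9501.5, 11642 and 17813 in hypoxia, against 16040.4, 17209.9, 11489.7 and 14321 in control. Hypoxia 4 was the highest of all 8 arrays. The change of -0.34 ± 0.21 did not pass, but without hypoxia 4 it was -0.56 and passed (adjusted p = 0.0314). A dimmer Txnip probe set gave -0.92 and did not pass, with 876 to 6597 in hypoxia and 3290 to 7716 in control. Srxn1, which repairs hyperoxidised peroxiredoxins and is an NRF2 target, had signals of 591, 824, 1243 and 511 in hypoxia, against 923, 679, 637 and 520.3 in control. The groups overlapped widely (change 0.14, 95% interval -0.42 to 0.71).

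**Figure D2:**
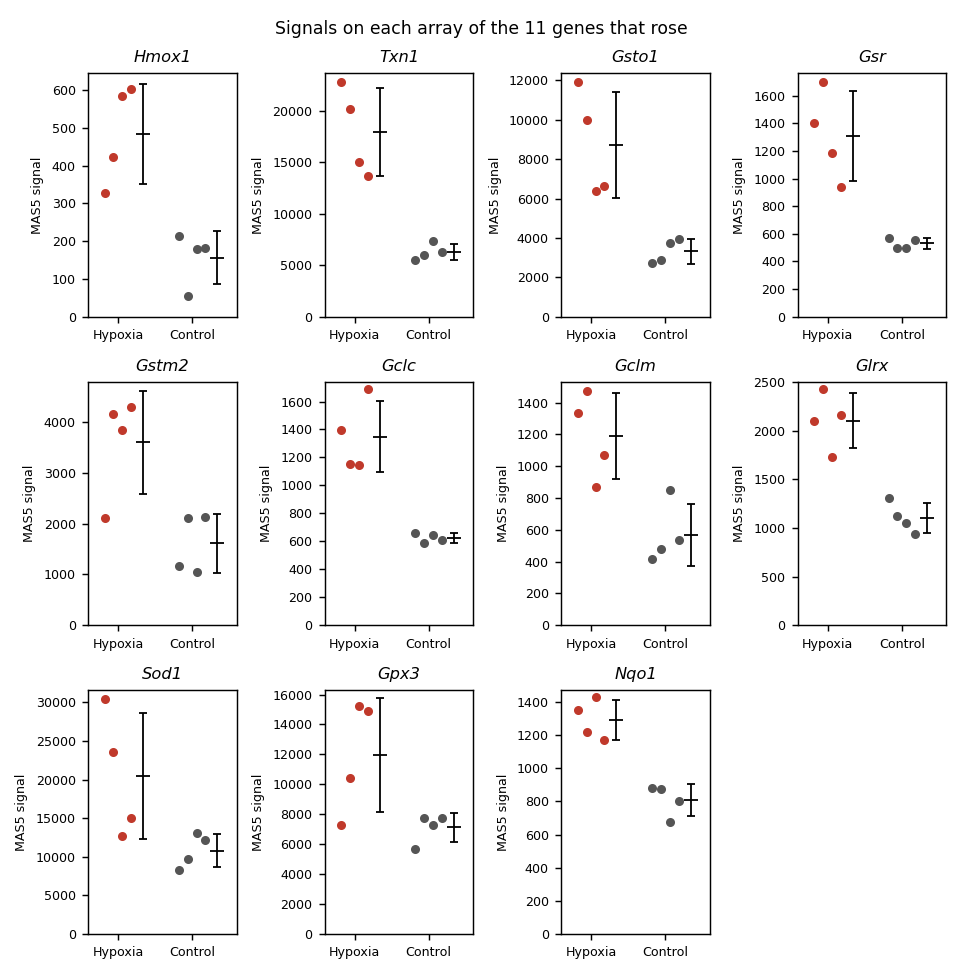
MAS5 signal on each array (y axis, linear from 0) of the 11 genes that rose, with hypoxia in red on the left and control in gray on the right, replicates 1 to 4 from left to right, and bars for the mean ± SD (n = 4). The groups overlap for Gstm2, Sod1 and Gpx3, and are apart for the other 8 genes.

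Among the enzymes that remove peroxides and superoxide, Sod1 rose and Prdx2 and Sod3 fell. Prdx2, a cytosolic peroxiredoxin that reduces hydrogen peroxide, had signals of 3087, 3103, 2878 and 3254 in hypoxia, against 5553, 5622, 6199.9 and 5396 in control. The values within each group lay close together, and Prdx2 fell by 0.88 ± 0.12 (adjusted p = 0.000149, n = 4 per group), as did its second probe set, also by 0.88. Prdx3 and Prdx4, the peroxiredoxins of the mitochondrion and the endoplasmic reticulum, changed by -0.14 and -0.20 and did not pass. Sod1, the cytosolic copper-zinc superoxide dismutase, had signals of 30474, 23520.4, 12703 and 15025 in hypoxia, against 8318, 9698, 13056 and 12106 in control. Hypoxia 3 lay below control 3, so the groups overlapped, and the rise of 0.85 ± 0.25 passed (adjusted p = 0.0186). It did not pass without control 1 (0.74, adjusted p = 0.0584), without control 2 (0.81, adjusted p = 0.0509) or without hypoxia 2 (0.76, adjusted p = 0.0607). The other Sod1 probe sets past the filter gave 0.51, -0.07 and -1.11, none of which passed, so the rise of Sod1 is uncertain. Sod2, the mitochondrial manganese enzyme, had signals of 11190.3, 7284, 6803 and 6234 in hypoxia, against 8516, 8540.4, 11915 and 9693 in control. The groups overlapped and the change of -0.32 ± 0.19 did not pass (95% interval -0.73 to 0.09), while 1 of its 3 other probe sets past the filter fell by 1.55. Sod3, the secreted form bound to extracellular matrix, had signals of 40.7, 97.7, 34.6 and 74.5 in hypoxia, against 247, 121.5, 488 and 217 in control. It fell by 1.79 ± 0.42 with no overlap (adjusted p = 0.00526). Its hypoxia mean of 61.9 ± 29.6 (SD, n = 4) lay below the filter signal of 90.2, so the size of the fall depends on the constant added. Cat, the peroxisomal catalase, had signals of 7785, 4535, 3672 and 6252 in hypoxia, against 4862, 4333, 8544 and 6129 in control. The groups overlapped widely, and the change of -0.11 had a 95% interval of -0.65 to 0.43.

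Of the glutathione peroxidases, which reduce peroxides with glutathione, the secreted Gpx3 rose and the other 4 did not pass. Gpx3, the form found in plasma, had signals of 7264, 10430.1, 15260.5 and 14885 in hypoxia, against 5684, 7752, 7261 and 7741.5 in control. Hypoxia 1 lay within the control range and the other hypoxia arrays were above it, giving a rise of 0.70 ± 0.22 (adjusted p = 0.0266, n = 4 per group). Without hypoxia 1 the rise was 0.92 (adjusted p = 0.00122). It did not pass without control 1, control 3, hypoxia 3 or hypoxia 4 (0.56 to 0.71, adjusted p = 0.0512 to 0.0816), nor after quantile normalization (0.64, adjusted p = 0.0737) or with no intensity trend in the fit (0.70, adjusted p = 0.0575). Gpx1, the main cytosolic peroxidase, had signals of 4374, 5270.2, 5581 and 4559.5 in hypoxia, against 5063, 5330.4, 6463 and 4445 in control. The groups overlapped (change -0.10, 95% interval -0.43 to 0.23). Gpx4, which reduces lipid hydroperoxides in membranes and protects against ferroptosis, had signals of 8482, 12159, 11898 and 13379 in hypoxia, against 12304, 14620, 15286 and 15636 in control. Hypoxia 1 was the lowest, and the change of -0.35 ± 0.16 did not pass (adjusted p = 0.116). Gpx7 and Gpx8, of the endoplasmic reticulum, changed by 0.01 and -0.29 without passing. Glrx, the cytosolic glutaredoxin that removes glutathione from proteins, averaged 2102 ± 286 in hypoxia and 1102 ± 154 in control (SD, n = 4 each). Its groups did not overlap and it rose by 0.92 ± 0.16 (adjusted p = 0.000638), although its second probe set, at 0.13, did not pass and the mean of both rose by 0.52, so the rise of Glrx is uncertain. Glrx2, a largely mitochondrial glutaredoxin, changed by 0.28 ± 0.17 and did not pass.

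The glutathione S-transferases, which couple glutathione to reactive compounds, were the largest family, and 6 of 12 fell. Gsta4, an alpha-class enzyme that removes hydroxynonenal, a product of lipid peroxidation, had signals of 160.4, 147, 130.2 and 150.2 in hypoxia, against 858, 1004, 719 and 1062 in control. The 4 hypoxia signals were close together and far below every control signal, and Gsta4 fell 5.64-fold, a log2 change of -2.50 ± 0.18 (adjusted p = 6.76e-07, n = 4 per group). Gstt1, a theta-class enzyme, had signals of 274, 268, 311 and 323 in hypoxia, against 836, 910.1, 1033 and 946 in control. It fell 3.05-fold with tight groups (adjusted p = 6.63e-06). Gstp1, the pi-class enzyme, had signals of 8791.5, 7055, 6552 and 6503 in hypoxia, against 16988, 20108, 23183 and 20012 in control. It fell by 1.47 ± 0.15 with no overlap (adjusted p = 1.07e-05). Gstk1, the kappa-class enzyme of mitochondria and peroxisomes, had signals of 1354, 931, 1118 and 1499 in hypoxia, against 2804, 3418, 2861 and 3033 in control. The highest hypoxia array stayed below the lowest control array, and Gstk1 fell by 1.31 ± 0.17 (adjusted p = 6.67e-05). Mgst3, a membrane-bound microsomal enzyme, averaged 5597 ± 1915 in hypoxia and 10762 ± 1621 in control (SD, n = 4 each). Its groups did not overlap, and it fell 2-fold (adjusted p = 0.0043), with hypoxia 1 the lowest at 3428. Without hypoxia 1 the change of Mgst3 was -0.79 (adjusted p = 0.00536). Gstz1, a zeta-class enzyme of tyrosine breakdown, fell by 0.58 ± 0.20 with overlapping groups (adjusted p = 0.0406) and did not pass under 10 of 20 alternatives, among them quantile normalization (-0.45, adjusted p = 0.103), median centring (-0.50, adjusted p = 0.0807) and leaving out hypoxia 1 (-0.54, adjusted p = 0.0751). Its call was also lost without control 2, 3 or 4 and without hypoxia 2 or 3, with changes of -0.45 to -0.63.

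The members of this family that rose were Gsto1 and Gstm2. Gsto1, an omega-class enzyme that acts like a glutaredoxin, had signals of 11899, 9984, 6373 and 6627 in hypoxia, against 2707, 2855, 3763.5 and 3962 in control. Hypoxia 1 and 2 were the highest, no hypoxia array overlapped control, and Gsto1 rose by 1.36 ± 0.21 (adjusted p = 0.000355), with 1.31 on its second probe set. Gstm2, a mu-class enzyme, had signals of 2109.5, 4155, 3835.5 and 4292 in hypoxia, against 1172, 2101, 1044 and 2119.8 in control. Hypoxia 1 lay just below control 4, so the groups overlapped, and the rise was 1.17 ± 0.28 (adjusted p = 0.00539), or 1.41 without hypoxia 1. Gstm1 and Gstm5, mu-class neighbours of Gstm2, changed by 0.13 and -0.17 without passing. Dimmer Gstm1 probe sets rose by 1.32 and 1.52, and mu-class transcripts are alike in sequence, so the values of these 3 genes are uncertain. Gstt2 and Mgst1 changed by -0.12 and -0.07 and did not pass, and Gstt2 turned to 0.13 without hypoxia 1. As given above, marker sums of muscle fibres, fibroblasts, adipocytes and erythroid cells were lower in hypoxia and those of neutrophils higher. Those of macrophages and endothelial cells overlapped. The part of these cells in the 6 falls and in the rises of this family was not tested.

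**Figure D3:**
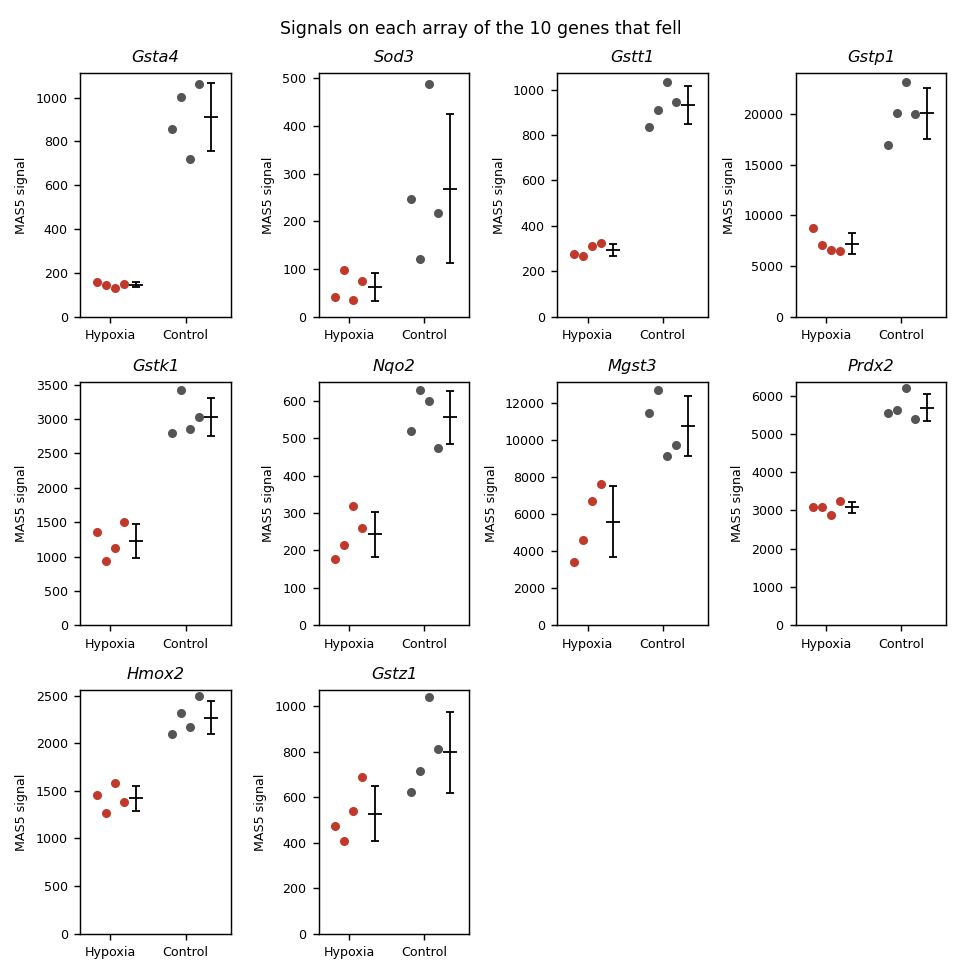
MAS5 signal on each array (y axis, linear from 0) of the 10 genes that fell, with hypoxia in red on the left and control in gray on the right, replicates 1 to 4 from left to right, and bars for the mean ± SD (n = 4). Gsta4, Gstt1 and Prdx2 show tight groups, and the groups overlap for Gstz1.

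Different probe sets of a gene read different parts of its transcripts, and they did not always give the same change. Of the 21 called members 11 had no other probe set past the filter. In 5 (Nqo2, Gclm, Prdx2, Gsto1 and Mgst3) every other probe set was called in the same direction. The dimmest Nqo2 set had a hypoxia mean of 78.6, below the filter signal. In the remaining 5 (Gclc, Gsr, Txn1, Sod1 and Glrx), all of which rose, no other probe set was called the same way. Among members not called on the brightest probe set, another was called for Nfe2l2 and Gstm1 (higher) and for Keap1 and Sod2 (lower). These adjusted p-values were taken over all probe sets past the filter with 1 symbol.

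**Figure D4:**
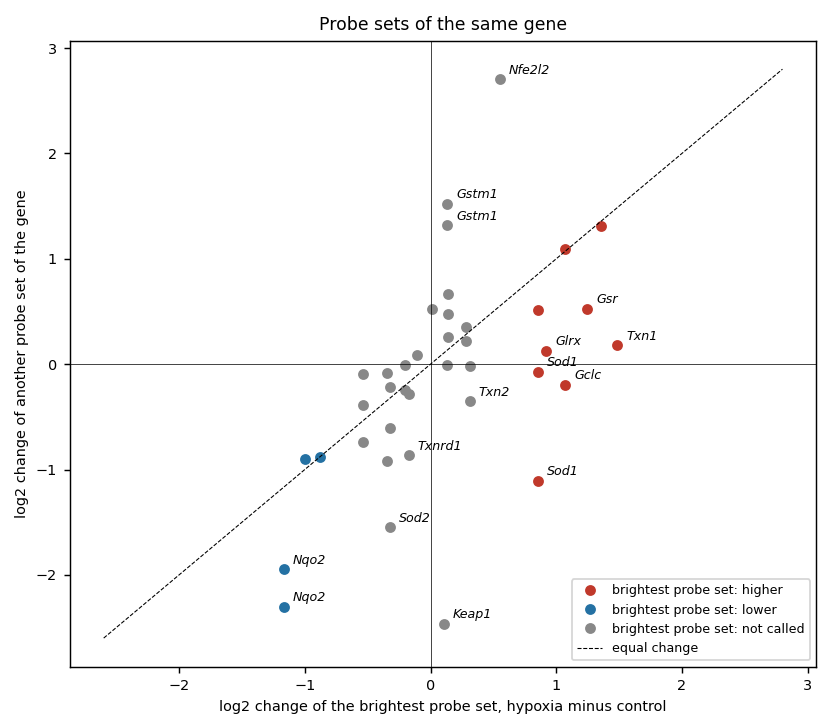
Log2 change of the brightest probe set of a gene (x axis) against that of each of its other probe sets past the filter (y axis), hypoxia minus control. Points near the dashed line, such as those of Gsto1, Gclm and Prdx2, changed alike, whereas Nfe2l2 (0.55 against 2.71) and Keap1 (0.10 against -2.46) lie far from it.

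Related genes were also compared within each array, as the log2 ratio of their signals after adding 16 to each, which draws the ratios of dim genes such as Hmox1, Nqo2 and Sod3 towards 0. Each gene was read on its brightest probe set. The pairs were chosen with the values known and are given with no test. The log2 ratio of Hmox1 to Hmox2 was 2.29 higher in hypoxia than in control, at -2.10 to -1.18 in hypoxia and -5.05 to -3.20 in control. That of Nqo1 to Nqo2 was 1.84 higher, at 2.11 to 2.83 in hypoxia and 0.16 to 0.75 in control. The ratio of Gsto1 to Gstp1 showed the widest gap of the 11 pairs, 2.83, at -0.04 to 0.50 in hypoxia and -2.81 to -2.33 in control. In each of these pairs the hypoxia and control arrays were apart. The ratio of Sod1 to Sod2 was 1.17 higher (0.90 to 1.69 in hypoxia, -0.03 to 0.32 in control), and that of Txn1 to Txn2 also 1.17 higher (2.21 to 3.22 in hypoxia, 1.20 to 1.72 in control). By contrast Gclc and Gclm, the subunits of a single enzyme, had a mean ratio that differed by 0.00, with overlapping values of -0.35 to 0.65 in hypoxia and -0.39 to 0.66 in control. This holds for the brightest sets only, as the other Gclc set changed by -0.19 and the second Gclm set by 1.09. The shift of Sod1 to Sod2 also rests on the brightest Sod1 set, the others past the filter having changed by 0.51, -0.07 and -1.11.

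**Figure D5:**
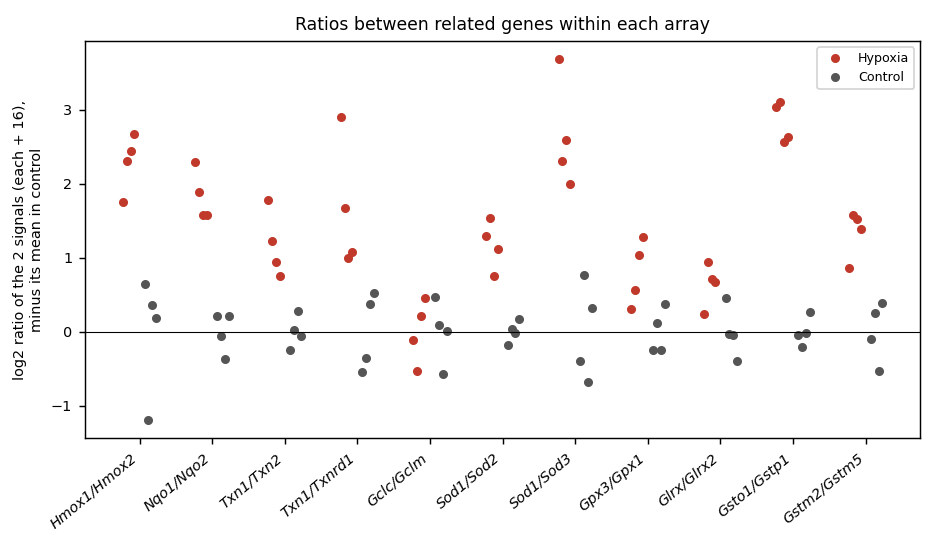
Log2 ratio of the signals of 2 related genes, each plus 16, on each array (y axis, after subtracting its mean over the control arrays), with hypoxia in red to the left of control in gray. The groups are apart for 8 of the pairs, with Gsto1 over Gstp1 shifted by 2.83, and overlap for Gclc over Gclm, Gpx3 over Gpx1 and Glrx over Glrx2.

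The promoters of the members were searched for short letter patterns of factors tied to these pathways. The windows ran from 250 bases before to 50 after each gene's start in RefSeq on GRCm38.p6, and 37 of the 44 tested members had a window. Those without one, and so not searched, were Hmox1, Gclc and Gsr, which rose, Gsta4 and Sod3, which fell, and Ggt5 and Gstt2, not called. TGACNNNGC, the core of the antioxidant response element, was looked for on both strands. It was in a window of 2 of 8 members that rose (Gclm and Sod1), 0 of 8 that fell and 5 of 21 not called (Gstm5, Mgst1, Nfe2l2, Srxn1 and Txnrd1). Over all genes with a window 14.0% held it, or 12.4% of all windows. The letters overlap those of AP-1 sites. ACGTG, a form of the core that hypoxia-inducible factors bind, was in 1 of 8 members that rose (Gclm), 2 of 8 that fell (Gstp1 and Gstt1) and 8 of 21 not called, against 21.8% of all genes or 19.6% of all windows. It also lies within the E-box CACGTG, where both strands match. A match is a description and not a binding site, and members without a match may hold such sites elsewhere or in other letters. Only these 2 patterns were searched. The Gstp1 window printed below holds tgagtcagc, which differs from TGACNNNGC in 1 letter, and no window was searched for that form. The windows of 3 members that rose and 2 that fell are shown from 5' to 3' on the gene's strand, as examples with and without a match. Capitals mark TGACNNNGC or its reverse complement in Gclm and Sod1, and ACGTG or its reverse complement in Gstp1 and Gstt1. The match in Gclm begins 134 bases and that in Sod1 56 bases before the start. That in Gstp1 begins 80 bases before the start, and that in Gstt1 26 bases into the transcribed part. Gclm is at chr3:122245307-122245606 (plus strand), Sod1 at chr16:90220512-90220811 (plus strand), Txn1 at chr4:57956362-57956661 (minus strand), Gstp1 at chr19:4037863-4038162 (minus strand) and Gstt1 at chr10:75797682-75797981 (minus strand). The Txn1 window held neither pattern, and the ACGTG match of Gclm, 67 bases before the start, is not capitalised.
Gclm: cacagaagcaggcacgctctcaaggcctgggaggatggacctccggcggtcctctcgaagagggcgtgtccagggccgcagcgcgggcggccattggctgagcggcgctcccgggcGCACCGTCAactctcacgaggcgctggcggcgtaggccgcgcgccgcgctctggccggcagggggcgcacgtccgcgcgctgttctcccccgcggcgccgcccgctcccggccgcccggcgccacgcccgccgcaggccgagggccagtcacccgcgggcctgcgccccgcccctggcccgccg
Sod1: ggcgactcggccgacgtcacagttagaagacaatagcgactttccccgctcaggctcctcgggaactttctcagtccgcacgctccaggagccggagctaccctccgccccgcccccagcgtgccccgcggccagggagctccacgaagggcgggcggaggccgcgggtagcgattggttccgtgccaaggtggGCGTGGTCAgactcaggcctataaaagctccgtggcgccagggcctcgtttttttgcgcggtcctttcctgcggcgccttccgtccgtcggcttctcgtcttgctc
Txn1: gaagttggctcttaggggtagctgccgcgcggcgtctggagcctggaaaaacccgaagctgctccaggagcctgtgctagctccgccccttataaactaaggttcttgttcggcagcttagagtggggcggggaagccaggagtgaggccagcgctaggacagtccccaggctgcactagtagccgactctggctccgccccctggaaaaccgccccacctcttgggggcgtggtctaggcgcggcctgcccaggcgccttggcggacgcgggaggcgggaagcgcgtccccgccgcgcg
Gstp1: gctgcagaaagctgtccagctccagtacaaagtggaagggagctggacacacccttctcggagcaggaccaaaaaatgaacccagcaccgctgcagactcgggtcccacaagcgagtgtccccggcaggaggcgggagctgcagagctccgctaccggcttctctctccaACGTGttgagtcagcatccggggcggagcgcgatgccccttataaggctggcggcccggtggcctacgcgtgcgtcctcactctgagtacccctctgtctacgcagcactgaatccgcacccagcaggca
Gstt1: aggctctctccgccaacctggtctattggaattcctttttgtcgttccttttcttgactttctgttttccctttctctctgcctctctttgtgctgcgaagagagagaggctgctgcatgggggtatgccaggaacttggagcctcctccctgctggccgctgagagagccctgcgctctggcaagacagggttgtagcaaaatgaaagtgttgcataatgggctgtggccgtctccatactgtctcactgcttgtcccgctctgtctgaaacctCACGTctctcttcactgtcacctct

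Among genes around these pathways, 6 of 9 tested partners and cofactors of NRF2 and KEAP1 rose and none fell, and the median log2 change of the 9 was 0.66. The list mixes opposing roles. Mafk, a small MAF protein that pairs with NRF2 on DNA, rose by 1.37 (2048 ± 487 in hypoxia, 786 ± 218 in control, SD, n = 4 each, adjusted p = 0.000249). Cul3, the ligase scaffold that KEAP1 uses, rose by 0.66, and Pgam5, a mitochondrial phosphatase that binds KEAP1, by 0.72. The other 3, named after their values were seen, were Maff, a small MAF protein (1.08), Bach2, a repressor that also pairs with small MAF proteins (0.71), and Dpp3, a peptidase that binds KEAP1 (0.65). NADPH supply was mixed, with 3 of 11 higher (Me2, Mthfd2 and Pgd) and 4 lower (Idh2, Mthfd1, Me1 and Pgls). Of 11 genes of cystine uptake and other glutathione enzymes 3 rose and 2 fell. Slc3a2, the heavy chain of the cystine transporter, rose by 1.14 (2772 ± 448 in hypoxia, 1243 ± 89.3 in control), and Hagh, a glyoxalase that releases glutathione, by 1.24 (6430.2 ± 919 in hypoxia, 2697 ± 151 in control). Chac2, a cytosolic enzyme that degrades glutathione, fell by 1.31 and Oplah, which returns oxoproline to glutamate, by 1.77.

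Of 15 selenoprotein and methionine sulfoxide reductase genes 8 fell and 4 rose, with a median of -0.38. The methionine sulfoxide reductases of the B class all fell: Msrb1 by 1.66 (2347 ± 464 in hypoxia, 7378 ± 579 in control, SD, n = 4 each), Msrb3 by 1.48 and Msrb2 by 1.40. The 4 that rose were Selenok, Selenos, Sephs2 and Msra. Among sources of superoxide and peroxide Maob, a monoamine oxidase of the mitochondrial outer membrane, fell by 2.82, while Xdh, the xanthine dehydrogenase that can turn into a superoxide-producing oxidase, rose by 1.33 and Nox4, an NADPH oxidase, by 0.68, of 11 tested. Of 13 other proteins with a thioredoxin fold Txnl1 and Txndc9 rose and Txndc5 and Txndc12 fell. In metal and heme handling the metallothioneins Mt1 and Mt2 rose by 3.57 and 3.50, and Blvra, the biliverdin reductase that follows heme oxygenase, fell by 0.70, as did Atox1, a copper chaperone, by 0.38, of 7 tested. The background shares of 14.8% higher and 18.8% lower hold for these lists too.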

How the data were processed

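RNA of 8 quadriceps samples was measured on 1 array each, grouped and numbered by the labels' titles. The authors deposited linear signal intensity values from MAS5, per the submitters' processing notes. The software version is not given in the sources used here. The 2% trimmed mean was 500.003 to 500.004 on all arrays, so no further scaling was applied, and the number of arrays limits the precision. No 2 arrays held identical values.

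Of 45101 probe sets, 64 control probe sets and the dimmest 40% by mean log2 signal were dropped (27022 remained, filter at a signal of about 90.2). The platform annotation gave 34958 probe sets 1 symbol and 932 several, and left 9211 unlisted. Symbols were updated through gene identifiers (99.4% matched). Signals were taken as log2(signal + 16), which makes the changes of dim genes too small. The 2 groups were compared, hypoxia minus control, by limma 3.58.1 in R 4.3.3 (two-sided, lmFit and eBayes with a trend in intensity, without a block). P-values were adjusted by Benjamini-Hochberg over 13257 genes. The fit was also run on simulated arrays with independent noise for each probe set, which real arrays need not have, and no conclusion is drawn from that run. Members, lists and pairs were chosen with earlier results of these data known. Signals on every array are given for core members and for called members with at least 2-fold change and no overlap, and also for Gpx3, Gstm2, Hmox2, Prdx2 and Txn2, chosen after their values were seen. From other lists up to 3 genes with the smallest p, and all where 5 or fewer moved 1 way, could be named. Alternatives covered normalization, pseudocount, filter, choice of probe set, moderation, array weights, a replicate block and leaving out each array.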

Additional observations from a re-analysis of the deposited data

Results flagged for a closer look

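In 3 of 88 groups of 4 arrays (44 members in hypoxia and in control), 1 array lay far from the other 3, where chance gives about 1 in 20. The signal of Hmox1 in control 2 was 54.4, against 179 to 213 in the other control arrays. The signal of Gstm2 in hypoxia 1 was 2109.5, against 3835.5 to 4292 in the other hypoxia arrays. The signal of Keap1 in hypoxia 3 was 1500.9, against 1345 to 1369.5 in the other hypoxia arrays. Without control 2 Hmox1 changed by 1.24, and without hypoxia 1 Gstm2 changed by 1.41, and both rose. Keap1 was not called with or without hypoxia 3.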

How the results depend on the processing

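Of the 21 calls among the members 17 held under every one of the 20 alternatives that could be fitted (Sod3 was not tested with a 60% filter), and those of Gclc, Sod1, Gpx3 and Gstz1 did not. Leaving out each array in turn gave 10 to 12 members higher and 9 to 11 lower, and 1610 to 1911 genes higher and 2082 to 2580 lower. With every probe set as a unit 3043 were higher and 4107 lower, because more units were tested. With all probe sets of a gene averaged, Keap1 turned to -1.18, Gclc (0.44) and Sod1 (0.05) were lost, and Nfe2l2, Gstm1, Keap1 and Sod2 were called. Without single arrays, Txnrd1 ranged from -0.35 to 0.11, Srxn1 from -0.10 to 0.32 and Cat from -0.29 to 0.078. Their brightest sets thus gave no firm direction. The other sets past the filter gave -0.29 and -0.86 for Txnrd1, 0.26, 0.47 and 0.66 for Srxn1 and 0.09 for Cat. None of these passed. No called member changed sign under any alternative, and 10 of the 23 not called did under at least 1. The alternatives read members only on the brightest probe set in that setting or on the mean of a gene's sets. Dimmer sets were thus not tried singly. The other Gclc set gave -0.19, and the other Sod1 sets past the filter gave 0.51, -0.07 and -1.11. Same-numbered arrays of the groups did not deviate together (correlations of -0.07 to 0.00), so the titles' numbers were not taken as pairs. With the replicate block 12 members were higher and 10 lower, Nfe2l2 being added, and 1782 genes were higher and 2300 lower. Nqo2 ranged from -2.47 to -1.11 without single arrays, as its brightest probe set changed. Quantile normalization gave 10 members higher and 9 lower, and median centring 11 and 9. Txn2 was called with array weights and without hypoxia 1, and Txnip without hypoxia 4. Dim signals near the filter, such as Sod3 in hypoxia, limit the size of a change. Sod3 was called lower in all 19 alternatives that tested it, with changes of -2.09 to -1.32. For Keap1 the dimmer set (-2.46) differed from the brightest (0.10) in direction too.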
